A study of Mus musculus with 10 samples.

Results

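The calcineurin and NFAT genes were examined in the left ventricle of mice that lack the melanocortin 4 receptor (Mc4r) and of wild type mice. The group holds 9 genes, taken by symbol from the 24160 gene rows of the deposited table. They are the calcineurin catalytic subunits Ppp3ca and Ppp3cb, the regulatory subunit Ppp3r1, the calcineurin regulators Rcan1 and Rcan2, and the transcription factors Nfatc1, Nfatc2, Nfatc3 and Nfatc4. Each symbol had 1 row, and all 9 passed the filter on low values (a mean of at least 1 normalized count). The libraries are 6 from MC4R-/- mice and 4 from WT mice, all of strain C57BL6/J, aged 30 weeks, housed at 24 °C and bred from heterozygous parents. RNA came from the posterior wall of the left ventricle. The labels do not give the sex of the mice, how the Mc4r allele was made or whether every library came from its own animal. The p-values therefore measure the spread between these libraries, which may in part be technical. The title of the series links loss of the receptor to a dilated heart, and the only contrast of the design is knockout against wild type.

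Calcineurin is a phosphatase that calcium-bound calmodulin switches on. In heart muscle it removes phosphate from NFAT factors, which then enter the nucleus and act with partners such as Gata4 and Mef2 factors, while kinases return NFAT to the cytoplasm. The pathway is a textbook driver of pathological hypertrophy. Rcan1 is both a direct target of NFAT and an inhibitor of calcineurin, so its short transcript is widely used as a readout of the pathway.

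Rcan1 lies at chr16:92391951-92466169 (minus strand; all positions are in GRCm38) and has a distal and an internal start, 66.1 kb apart. The distal start (position 92466169) belongs to the long transcript NM_001081549 and the internal start (position 92400078) to the short transcript NM_019466. The deposited row joins both transcripts, so the values below cannot be split between them. The 250 bases before each start are shown because the internal start is the one known for a cluster of NFAT sites. They come from RefSeq (GRCm38.p6) at chr16:92466170-92466419 and chr16:92400079-92400328, both read 5′ to 3′ on the minus strand and both free of annotated exons. Capitals mark each GGAAA, the core letters of an NFAT site, on either strand (TTTCC on the strand shown).
Rcan1 distal start: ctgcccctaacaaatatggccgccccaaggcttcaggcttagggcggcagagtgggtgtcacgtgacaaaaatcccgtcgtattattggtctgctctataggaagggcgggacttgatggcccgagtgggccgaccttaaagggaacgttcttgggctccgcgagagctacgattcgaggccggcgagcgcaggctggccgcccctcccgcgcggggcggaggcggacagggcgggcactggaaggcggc
Rcan1 internal start: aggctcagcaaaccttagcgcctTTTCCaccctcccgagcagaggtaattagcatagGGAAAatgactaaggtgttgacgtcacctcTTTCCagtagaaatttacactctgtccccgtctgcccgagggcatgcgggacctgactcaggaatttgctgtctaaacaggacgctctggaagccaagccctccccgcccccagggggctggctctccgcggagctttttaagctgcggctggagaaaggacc
The internal window held GGAAA 3 times, 1 on the strand shown and 2 on the other, and the distal window held it 0 times. At least 1 match was present in 55.6% of the 32851 windows of this length in the RefSeq table, and at least 3 in 6.39%. Windows were listed for 7 of the 9 genes, 12 in all, and 7 of these 12 held at least 1 match. A count of 3 was not particular to Rcan1, since 1 window each of Nfatc2, Ppp3cb and Nfatc4 also held 3. A match of letters is a description and not a measured binding site.

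The libraries held 4145033 to 6425785 reads assigned to genes. Mc4r gave 4 reads in all from the knockout and 2 from wild type, so it checks no label at this depth. Ventricular muscle markers (Myh6, Tnnt2, Tnni3, Actc1, Myl2 and Myl3) summed to 362790 to 412580 normalized counts in the knockout and 378270 to 429980 in wild type. Wild type replicate 2 stood apart by its lymphocyte markers, mainly T cell genes, which summed to 883 normalized counts against 12.2 to 43.3 in the other libraries. Knockout replicate 5 stood apart by its atrial markers (Myl7, Sln and Myl4), at 1795 against 4.51 to 351 elsewhere. The sum of 6 macrophage markers ran from 1101 to 1376 in the knockout and from 826.5 to 1085 in wild type, and that of 5 fibroblast markers from 4963 to 5661 and from 4416 to 5164. The part of these cells in the results below was not tested.

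None of the 9 genes passed the test between genotypes (limma on log2 values, Benjamini-Hochberg adjusted over 14611 genes, threshold 0.05). The count was 0 of 9, where 0.459% of all genes tested passed. Of the count models on recovered reads, edgeR called 0 of the 9 (0.342% of all genes) and DESeq2 called 1, Rcan1 (1.18% of all genes with an adjusted p). At an unadjusted limma p below 0.05 the count was 2 of 9, Rcan1 and Rcan2, where 9.6% of all genes did so. Both were higher in the knockout, as were 5.19% of all genes at that p. The mean log2 value was higher in the knockout for 3 of the 9 genes and lower for 6, against 48.4% higher among all genes. The median log2 fold change, knockout over wild type on the log2(normalized count + 1) scale, was -0.03 over the 9 genes and -0.01 over all genes tested.

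**Figure D1:**
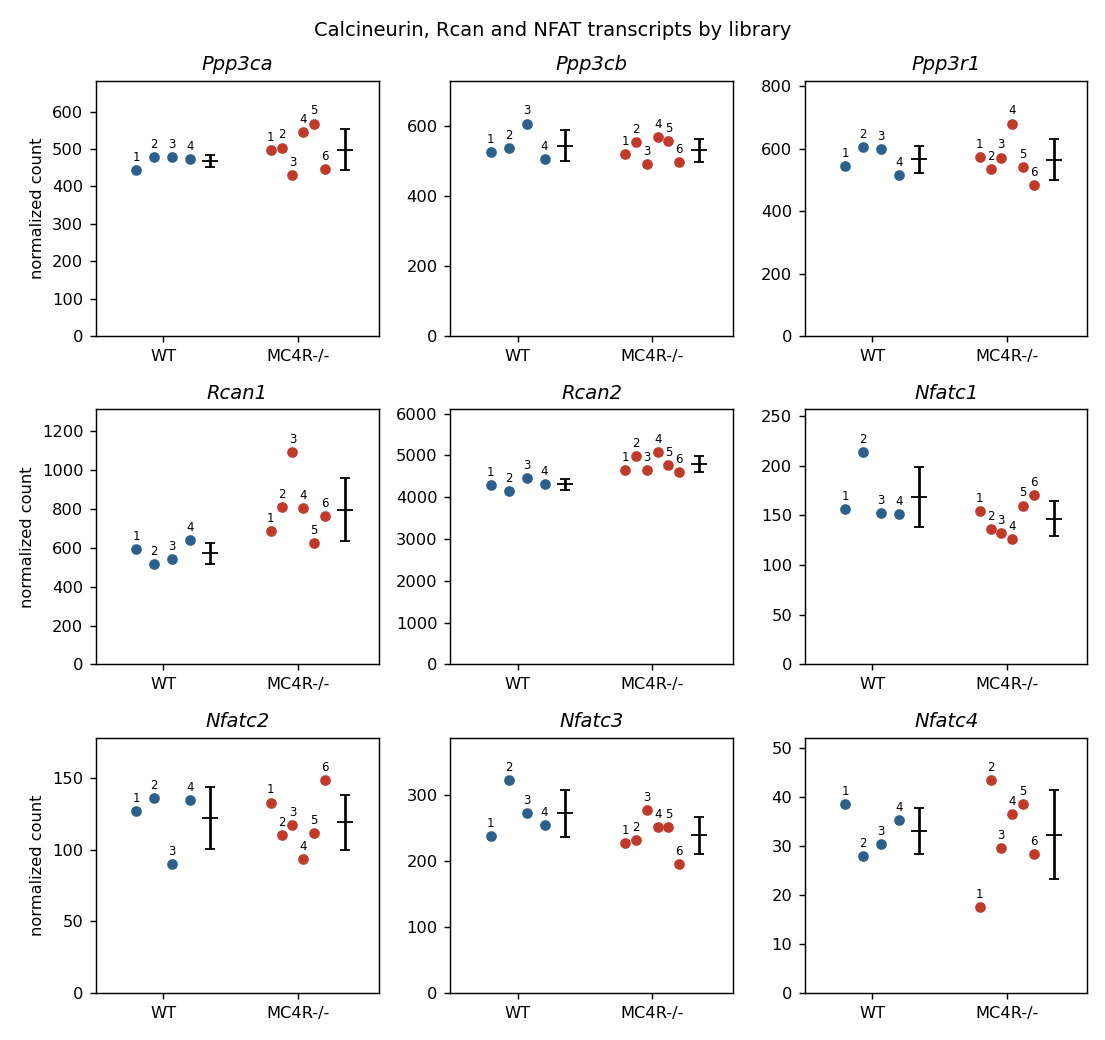
Normalized counts of the 9 genes in each library, WT in blue and MC4R-/- in red, with replicate numbers beside the points and the group mean ± SD in black. All 6 knockout libraries lie above all 4 wild type libraries for Rcan2 (4611 to 5083 against 4157 to 4459), and 5 of the 6 do so for Rcan1.

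Among the regulators, Rcan1 showed the largest difference of the group. It had 594, 515, 539.9 and 637 normalized counts in wild type replicates 1 to 4. In the knockout its lowest value was 622, its median 781 and its highest 1092, in replicate 3. The mean was 39.1% higher in the knockout, and 5 of the 6 knockout libraries lay above all wild type libraries. The exception was knockout replicate 5, the library with the highest atrial marker sum, which lay below wild type replicate 4. The log2 fold change was 0.46 ± 0.12 (SE), with a 95% interval of 0.19 to 0.72. The unadjusted p was 0.00224 and the adjusted p was 0.17 (limma, Benjamini-Hochberg), so Rcan1 did not pass. It passed with DESeq2 on the recovered reads (adjusted p = 0.0172) and with limma without knockout replicate 5 (adjusted p = 0.0289, log2 fold change 0.52). It also passed, narrowly, without both knockout replicate 5 and wild type replicate 2 (adjusted p = 0.04999). In the other 20 of 23 settings it did not pass, with adjusted p up to 0.404 and with edgeR at 0.092, and without knockout replicate 3 the log2 fold change was 0.36. The part of atrial tissue in these values was not tested.

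The spread of Rcan1 over the knockout was smaller without replicate 3, its highest library. The SD on the log2 scale was 0.28 over the knockout and 0.14 over wild type. The knockout value was larger than that of 93.5% of the 9164 genes with a mean of at least 50 normalized counts, whose median was 0.14. Without replicate 3 the knockout SD was 0.16, larger than that of 63.9% of these genes over the same 5 libraries. The wild type value was larger than that of 43.9% of them. Leaving out a gene's own highest library tends to lower its SD, and the other genes did not each lose theirs. Dixon's test, given below, did not set replicate 3 apart, but only narrowly. Its gap to the next library was 0.6 of the knockout range, just short of the cutoff.

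**Figure D2:**
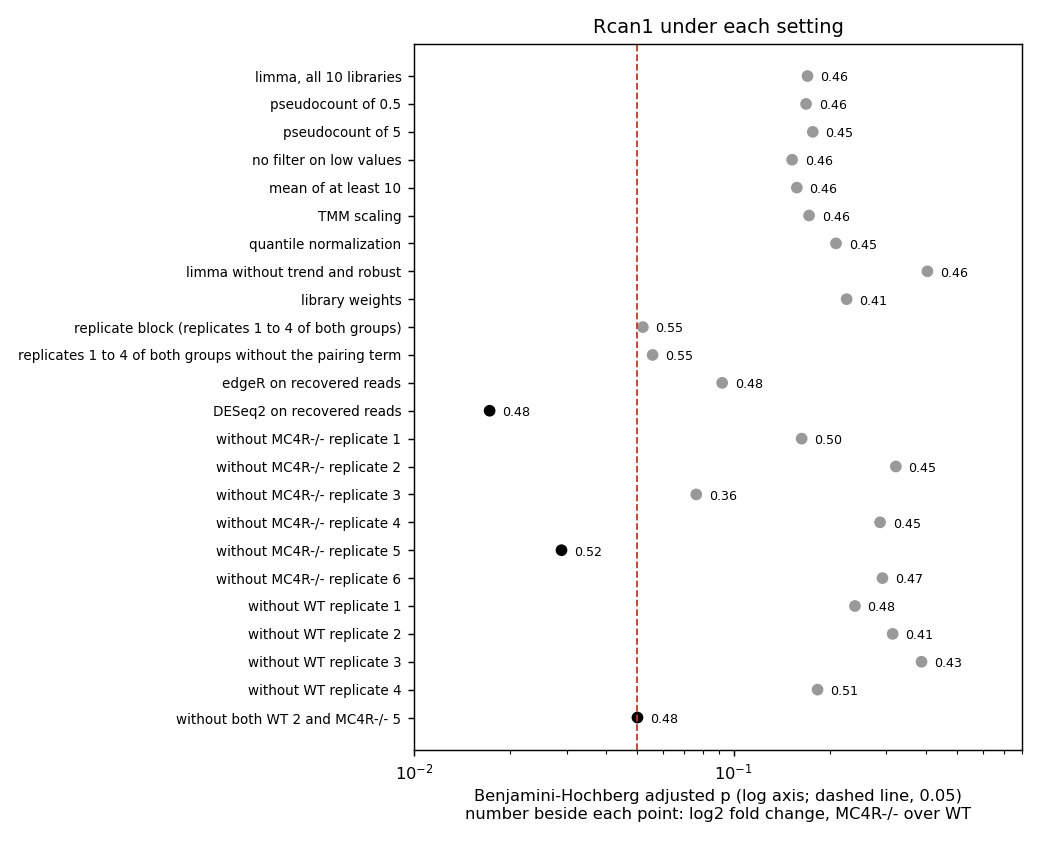
Adjusted p of Rcan1 (horizontal log axis) for the fit on all 10 libraries and each of 23 alternative settings, with the log2 fold change beside each point and the 0.05 threshold as a dashed line. The fold change stays between 0.36 and 0.55 throughout, and 3 of the 23 alternatives (black points) fall below the threshold.

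Rcan2, a second inhibitor of calcineurin, lies at chr17:43801352-44039516 and was the most abundant transcript of the group. It had 4304, 4157, 4459 and 4308 normalized counts in wild type replicates 1 to 4. The knockout values had a minimum of 4611, a median of 4713 and a maximum of 5083. The genotypes did not overlap, which held for 1 of the 9 genes and for 2.28% of all genes tested (1.34% with the knockout higher). The knockout mean was 11.3% higher, a log2 fold change of 0.15 ± 0.06 (SE) with a 95% interval of 0.04 to 0.27. It did not pass the test (unadjusted p = 0.012, limma adjusted p = 0.321), with edgeR (0.261) or with DESeq2 (0.0797). Its spread was small, with a log2 SD of 0.06 in the knockout and 0.04 in wild type.

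The ratio of Rcan2 to Rcan1 within each library followed from these values. It was 7.25, 8.06, 8.26 and 6.76 in wild type replicates 1 to 4. In the knockout the ratio ran from 4.26 in replicate 3 to 7.68 in replicate 5, with a median of 6.25. The genotypes overlapped in this ratio. Its mean was 6.21 ± 1.13 (SD) over 6 knockout and 7.58 ± 0.702 (SD) over 4 wild type libraries. It compares 2 genes within a library and is given as a description.

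No calcineurin subunit among the members differed detectably at the transcript level. Protein and enzyme activity were not measured. Ppp3ca, the alpha form of the catalytic subunit (chr3:136669714-136937727), had 444, 478, 478 and 473 normalized counts in wild type replicates 1 to 4. Its knockout values were 429 at the lowest, 501 at the median and 568 at the highest. The knockout libraries thus lay on both sides of the narrow wild type range, 4 above it and 1 below. The log2 fold change was 0.09 ± 0.08 (SE; limma adjusted p = 0.796), with a 95% interval of -0.08 to 0.25. It was 0.05 without knockout replicate 5 (adjusted p = 0.898).

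Ppp3cb, the beta form (chr14:20499364-20546573), had 527, 539, 608 and 505 normalized counts in wild type replicates 1 to 4. The knockout ran from 492 through a median of 538 to 569. The groups overlapped, with 2 knockout libraries below all wild type libraries. The difference was a log2 fold change of -0.03 ± 0.08 (SE; limma adjusted p = 0.929) and a 95% interval of -0.19 to 0.12. The ratio of Ppp3ca to Ppp3cb averaged 0.936 ± 0.054 (SD) in 6 knockout and 0.862 ± 0.0638 (SD) in 4 wild type libraries, and the groups overlapped.

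Ppp3r1, the calcium-binding regulatory subunit that the catalytic subunits need (chr11:17159298-17200380), had 545, 606, 599 and 517 normalized counts in wild type replicates 1 to 4. Its knockout minimum was 484, its median 557 and its maximum 680.4. Both extremes of the 10 libraries were thus knockout libraries. The log2 fold change was -0.01 ± 0.08 (SE; limma adjusted p = 0.987), with a 95% interval of -0.18 to 0.16. Over the 3 calcineurin subunits the intervals reached from -0.19 to 0.25, so changes of that size or less remain possible.

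The NFAT factors had a lower mean log2 value in the knockout in 4 of 4 cases, as did 7539 of all 14611 genes tested. Nfatc2 and Nfatc4 changed sign when some single libraries were left out. None of the 4 factors passed (0 by limma, edgeR and DESeq2, and 0 at an unadjusted limma p below 0.05). Nfatc1, a factor also known from endocardium and lymphocytes, lies at chr18:80606205-80713071, 13.7 Mb from Mc4r on the same chromosome. It had 157, 214, 152 and 151 normalized counts in wild type replicates 1 to 4. In the knockout it ran from 126 through a median of 145 to 171. The value of 214 belongs to wild type replicate 2, the library with the lymphocyte transcripts, and without it the remaining wild type values lie within the knockout range. The log2 fold change was -0.19 ± 0.12 (SE; limma adjusted p = 0.642) and -0.07 without that library (adjusted p = 0.892).

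Nfatc3, a factor that calcineurin activates in heart muscle (chr8:106058818-106130537), was also highest in wild type replicate 2. Its wild type values were 239, 322, 273 and 255 normalized counts in replicates 1 to 4. The knockout values were 195 at the lowest, 242 at the median and 277 at the highest. The log2 fold change was -0.18 ± 0.10 (SE; limma adjusted p = 0.597), with a 95% interval of -0.39 to 0.02, and it was -0.10 without wild type replicate 2 (adjusted p = 0.808).

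Nfatc2, the NFAT factor first known from T cells (chr2:168476410-168601657), had 127, 136, 90.0 and 135 normalized counts in wild type replicates 1 to 4. The knockout ran from 93.6 through a median of 115 to 148, within nearly the same range. Its log2 fold change was -0.03 ± 0.13 (SE; limma adjusted p = 0.969), and it turned to 0.03 without wild type replicate 2. In that library Nfatc2 was not set apart, at 136 against 135 in wild type replicate 4.

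Nfatc4, the factor through which calcineurin was first linked to cardiac hypertrophy (chr14:55824795-55833943), was the least abundant, with 18 to 42 reads per library. It had 38.5, 28.0, 30.5 and 35.2 normalized counts in wild type replicates 1 to 4. Its knockout minimum was 17.6, its median 33.1 and its maximum 43.4, so the knockout enclosed the wild type range. The log2 fold change was -0.07 ± 0.22 (SE; limma adjusted p = 0.953), with the widest interval of the group, -0.52 to 0.37.

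**Figure D3:**
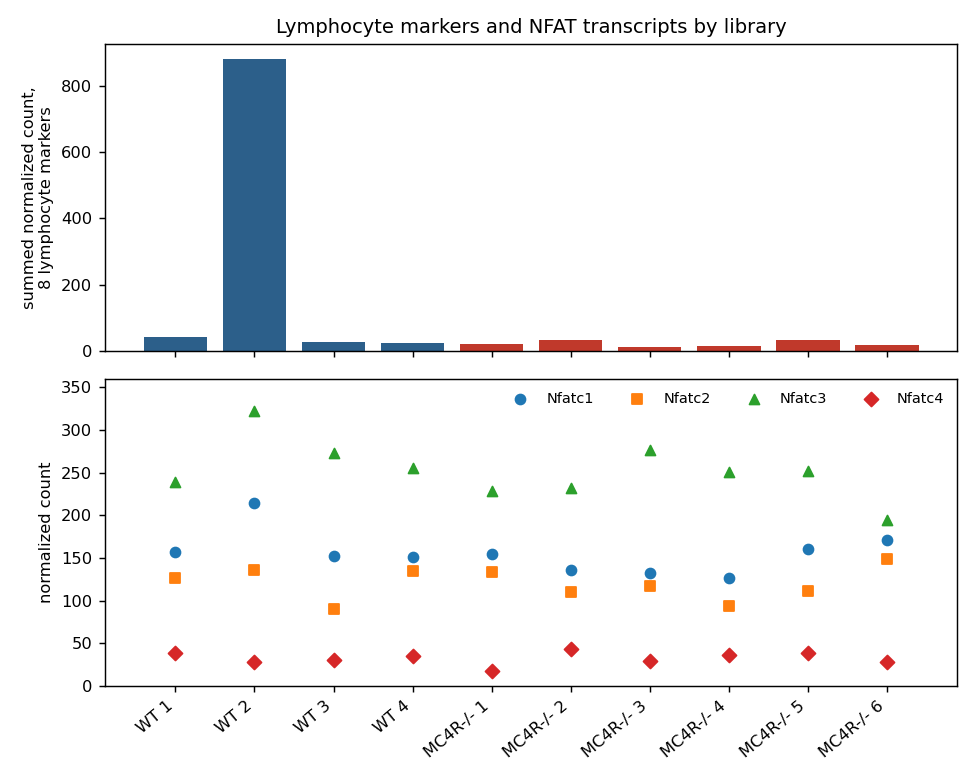
Top, the summed normalized count of 8 lymphocyte markers in each library (bars, WT in blue and MC4R-/- in red). Bottom, normalized counts of the 4 NFAT factors in the same libraries: wild type replicate 2, with a marker sum of 883, also has the highest Nfatc1 (214) and Nfatc3 (322) of the 10 libraries.

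Lymphocytes are known to express NFAT factors. The marker list holds 8 genes (Cd3e, Cd3d, Cd3g, Cd4, Cd8a, Lck, Cd79a and Ms4a1). Its sum was 12.2 to 34.1 normalized counts in the knockout and 24.7 to 43.3 in wild type replicates 1, 3 and 4. In those 9 libraries from 0 to 3 of the 8 markers were at 0. In wild type replicate 2, 98.8% of the sum came from the 5 T cell genes Cd3e, Cd3d, Cd3g, Cd4 and Lck, with Lck at 273 and Cd4 at 253 normalized counts against at most 7.23 and 15.4 elsewhere. Cd8a (2.71) and the B cell genes Cd79a (7.22) and Ms4a1 (0.903) were low in it, where the other libraries reached 7.23, 5.16 and 6.92. The part of these cells in the level of Nfatc1 or Nfatc3 in wild type replicate 2 was not tested. In whole tissue, fewer cells of a type and less RNA per cell cannot be told apart.

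Between genes, levels were compared per kilobase of transcript (the mean length of the row's transcripts in GENCODE M21), over all 10 libraries. The mean weights annotated transcripts equally (17 with a length for Nfatc2, 6 for Nfatc1 and 1 for Nfatc3). Which of them these libraries hold is unknown, so small gaps between genes are uncertain. Rcan2 stood first at 1762 normalized counts per kilobase, followed by Rcan1 at 313. The calcineurin subunits came next, Ppp3r1 at 198, Ppp3cb at 158 and Ppp3ca at 139.9. The NFAT factors followed with Nfatc3 at 42.2, Nfatc1 at 34.0, Nfatc2 at 21.8 and Nfatc4 at 9.26. Rcan2 and Rcan1 did not overlap over the libraries (lowest Rcan2 1593, highest Rcan1 484). The other neighbours in this order overlapped, except that the lowest Ppp3ca (124) stayed above the highest Nfatc3 (53.9), the lowest Nfatc1 (27.6) just above the highest Nfatc2 (26.9), and the lowest Nfatc2 (16.3) above the highest Nfatc4 (12.3).

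**Figure D4:**
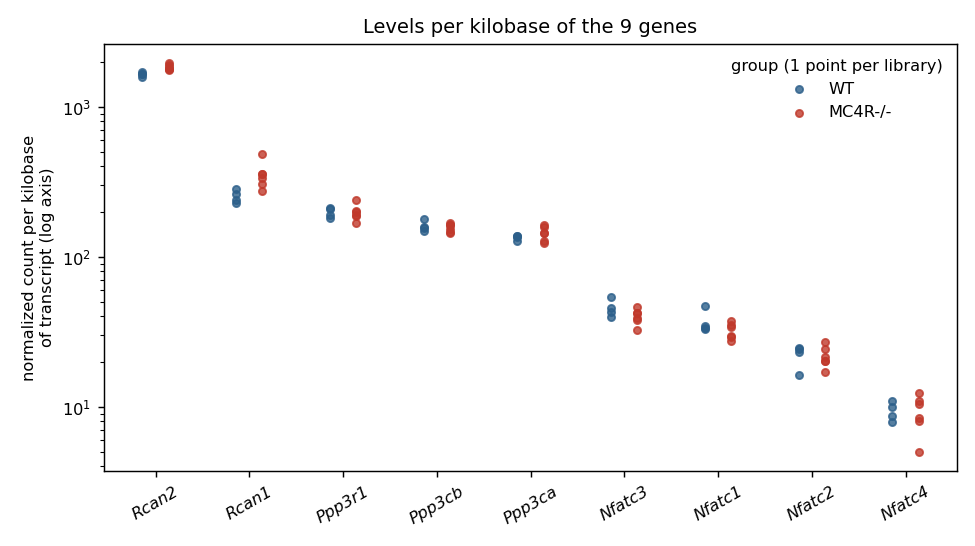
Normalized count per kilobase of transcript (log axis) of the 9 genes, ordered by their mean, with 1 point per library, WT in blue and MC4R-/- in red. Rcan2 is at 1593 or more in every library, the calcineurin subunits lie between 124 and 238, and the NFAT factors are at most 53.9.

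Within the NFAT factors, Nfatc3 and Nfatc1 made up most of the transcripts in both genotypes by this measure per kilobase. Per kilobase, Nfatc3 took 38.9% ± 4.68 (SD) of the sum of the 4 factors over 6 knockout and 39.95% ± 2.98 (SD) over 4 wild type libraries. Nfatc1 took 31.2% ± 3.14 and 32.3% ± 2.104, and Nfatc2 took 21.0% ± 3.15 and 19.4% ± 2.92, in the same order. Nfatc4 took 8.94% ± 2.59 in the knockout and 8.37% ± 1.76 in wild type. The groups overlapped in each of the 4 shares.

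Relations among the 9 genes across libraries did not pass adjustment. Of the 36 pairs, 4 had a Pearson correlation of log2 values with p below 0.05 by permutation, and after adjustment over the 36 pairs 0 remained, by Pearson or by Spearman. The lowest p belonged to Ppp3cb and Nfatc2 (r = -0.821, permutation p = 0.00357, adjusted p = 0.129; rho = -0.733, permutation p = 0.0202, adjusted p = 0.306; n = 10). Without the 2 libraries farthest from the median of Ppp3cb, r was -0.898, and within the 6 knockout libraries it was -0.773. Rcan1 and Rcan2 had r = 0.62 over all libraries (permutation p = 0.056, adjusted p = 0.353) and rho = 0.697 (permutation p = 0.0313, adjusted p = 0.306). Because Rcan2 separated the genotypes, their relation was also read within the 6 knockout libraries, where r was -0.0344. The knockout library highest in Rcan1, replicate 3, had 4649 normalized counts of Rcan2, below the knockout median. Ppp3ca and Ppp3cb had r = 0.586 over all libraries (permutation p = 0.0758, adjusted p = 0.353; rho = 0.746, permutation p = 0.0177, adjusted p = 0.306). Without 2 libraries, chosen the same way, r was 0.53, and within the knockout it was 0.928.

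For each of the 8 members with a mean of at least 50 normalized counts, the 3 genes with the most similar pattern over the 10 libraries were taken from 8965 genes by Pearson r of log2 values. They are the extremes of that search, so r is given as a measure of likeness and with no p. Rcan1 was followed most closely by Ston2, which encodes the endocytic adaptor stonin 2 (0.964), the small heat shock protein gene Hspb8 (0.953) and the proton pump subunit Atp6v0a2 (0.943). Hspb8 had 4982 against 4082 normalized counts on average, knockout against wild type, and did not pass (limma adjusted p = 0.0558). Rcan2 was followed by Mtus1 (0.933), Plekha2 (0.927) and Homer2 (0.91), with 0.863, 0.799 and 0.642 within the 6 knockout libraries. Mtus1, a gene for a microtubule-associated protein, was the only gene among these neighbours that passed, with a mean of 1965 in the knockout and 1590.2 in wild type. Its log2 fold change was 0.31 (limma adjusted p = 0.0195). Because Rcan2 separated the genotypes, genes picked for likeness to it over all libraries tend to differ by genotype as well. This pass is therefore not separate evidence.

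Among the calcineurin subunits, Ppp3ca was followed by Rpap3 (0.944), Mnat1 (0.904) and Dnajc21 (0.895). Ppp3cb was followed by Nmnat3 (0.972) and by the genes of the mitochondrial ribosomal protein Mrpl32 (0.958) and the pyruvate carrier subunit Mpc1 (0.951). Ppp3r1 was followed by Jkamp (0.921), Kat7 (0.908) and Zfand6 (0.908). Among the NFAT factors, the gene closest to Nfatc1 was Ctdp1 (0.972), which lies 127 kb from it at chr18:80407959-80478739, then Als2cl (0.936) and Ppp1r18 (0.931). Nfatc2 was followed by the liver X receptor gene Nr1h3 (0.925), Sgta (0.917) and Rbck1 (0.915), and Nfatc3 by Nabp1 (0.932), Kat2a (0.925) and Ccndbp1 (0.886).

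The rest of the pathway was read from 7 lists with 49 genes, of which 48 were tested. No gene passed by limma or by edgeR (0 of 48, against 0.459% and 0.342% of all genes). DESeq2 called 1 of those to which it gave an adjusted p, against 1.18% of all such genes. An unadjusted limma p below 0.05 was found for 2 (4.17%, against 9.6% of all genes). The genotypes did not overlap in 2 of the 48 (4.17%, against 2.28% of all genes). The knockout mean was higher for 27 and lower for 21, with a median of 0.02 on the log2 scale. The remaining family genes came first. Ppp3cc, the gamma form of the catalytic subunit, had 207 ± 9.66 (SD, n = 6) against 217 ± 29.0 (SD, n = 4) normalized counts, knockout against wild type. Rcan3 had 105 ± 13.5 against 114 ± 18.8 and Nfat5, a factor that responds to osmotic stress and not to calcineurin, had 447 ± 45.7 against 445 ± 57.4. The smallest limma adjusted p of these 3 was 0.829, and their median log2 fold change was -0.06. Ppp3r2, a regulatory subunit known from testis, had 0 reads in the 10 libraries, which allows up to 3 reads of 57637707 in all.

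Among 10 anchors and inhibitors of calcineurin 5 had a higher and 5 a lower knockout mean, with a median log2 fold change of 0.00. Homer2, a scaffold protein that competes with calcineurin for NFAT in T cells, had 956 ± 38.4 normalized counts (SD) over 6 knockout and 808 ± 57.4 (SD) over 4 wild type libraries. Its genotypes did not overlap, with a log2 fold change of 0.24 ± 0.07 (SE), and it was the gene that DESeq2 called (adjusted p = 0.0218), while limma (0.135) and edgeR (0.123) did not. The calcineurin homologous protein gene Chp1 had 822 ± 65.1 against 757 ± 46.5 (limma adjusted p = 0.666), and Cib1, which tethers calcineurin to the muscle membrane, had 59.0 ± 6.93 against 67.4 ± 5.27 (0.714).

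None of the 5 calmodulin and immunophilin genes passed, and their median log2 fold change was 0.05. Calm2 had 689 ± 59.7 against 623 ± 75.7 normalized counts, knockout against wild type (limma adjusted p = 0.608). Calm3 had 997 ± 60.0 against 932 ± 48.7 (0.711), and Ppia, the receptor of cyclosporin, had 1301 ± 81.0 against 1393 ± 57.6 (0.687). Of 6 genes of calcium entry and release 4 had a lower knockout mean, and the median was -0.04 on the log2 scale. Trpc1 had 56.9 ± 5.78 against 66.5 ± 6.59 (0.671), Cacna1c, the pore of the cardiac L-type calcium channel, 2351 ± 210 against 2466 ± 175 (0.806) and the IP3 receptor gene Itpr2 174 ± 20.8 against 188 ± 28.8 (0.816).

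Among 11 kinases that return NFAT to the cytoplasm 8 had a higher knockout mean, with a median log2 fold change of 0.03. Mapk14, which encodes p38 alpha, had 625.1 ± 26.6 against 581 ± 35.996 normalized counts (limma adjusted p = 0.687). Dyrk2 had 70.4 ± 4.50 against 78.1 ± 10.8 (0.788) and Csnk1a1 846 ± 59.1 against 807 ± 77.1 (0.823). Of the 6 nuclear partners 3 had a higher mean, with a median of 0.02. Gata4, a factor that NFAT binds in heart muscle, had 791 ± 59.4 against 712 ± 76.4 (0.542), Mef2c 468 ± 31.0 against 421 ± 39.3 (0.562) and Mef2a 1174 ± 106 against 1267 ± 100.4 (0.692).

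Of 7 transcripts known to be raised in hypertrophied ventricle or by active calcineurin, 5 had a higher knockout mean and none passed (0 by limma, edgeR and DESeq2). Their median was 0.30 on the log2 scale. Xirp2, an actin-binding protein of the intercalated disc, was 1 of the 2 genes with an unadjusted p below 0.05 (0.00367) and its genotypes did not overlap. It had 6636 ± 439 against 5446 ± 903 normalized counts, with a limma adjusted p of 0.203. The skeletal actin gene Acta1 had 4186 ± 2672 against 2491 ± 924 (0.714) and Myh7, the slow myosin heavy chain, 1520 ± 322 against 1034 ± 531 (0.616). The 2 with a lower mean, named after their values were seen, were the natriuretic peptide genes Nppb at 624 ± 257 against 893 ± 439 (0.788) and Nppa at 724.5 ± 349 against 777 ± 378 (0.963). In Acta1, Myh7, Nppb and Nppa the difference of the means was smaller than the larger of the group SDs.

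**Figure D5:**
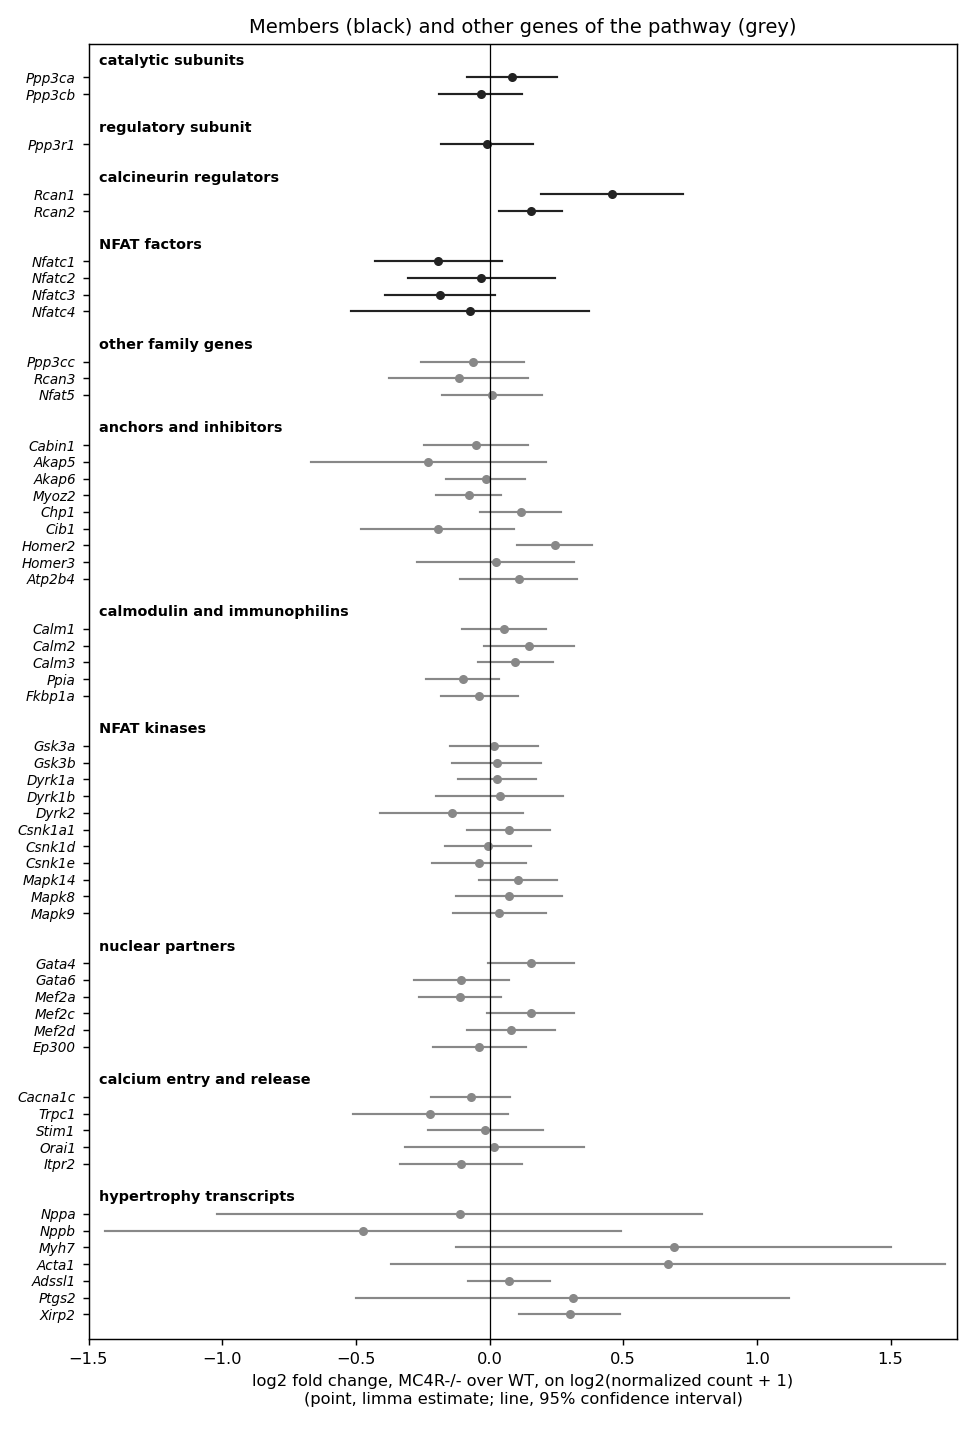
Log2 fold change, MC4R-/- over WT, with its 95% confidence interval (limma) for the 9 genes (black) and for the tested genes of the 7 pathway lists with a mean of at least 5 normalized counts in either genotype (grey). The intervals of Rcan1, Rcan2, Homer2 and Xirp2 leave out 0, and none of these genes passed after adjustment.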

How the data were processed

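Poly(A) RNA of the ventricle was sequenced from stranded KAPA libraries of 200 ng RNA with an integrity number above 7, per the labels' protocols. Cuffnorm 2.2.1.1, TopHat2 2.1.0 and build mm10 are among the names in the submitters' processing notes. Their roles, the annotation and the strand setting are not given in the sources used here. Reads of an antisense gene (annotated for Ppp3cb, Rcan1 and Nfatc1) or of another overlapping gene therefore cannot be told apart from the member's own. The others are Wdr92 (Ppp3r1), Esrp2 and Gm27956 (Nfatc3), Gm24532 (Rcan2), and Gm42822, 4930599N24Rik and Gm44327 (Ppp3ca).

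The deposited table holds signal values, which by their steps are reads per gene scaled by 1 size factor per library and not by gene length. Of values up to 1000 reads, 100% were whole multiples of the value of 1 read within 0.1. They are called normalized counts. Count models ran on the recovered reads. In knockout replicates 4 to 6 a read is worth 1.01 to 1.02 normalized counts, so the check says less for their lowest values.

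RefSeq accessions gave a symbol for 23984 of 24160 rows (RefSeq GRCm38.p6, the assembly that mm10 names). List genes whose row also holds a microRNA (Rcan3, Atp2b4, Lck and Pdgfra) were kept. Genotype was compared with limma 3.58.1 (R 4.3.3, trend and robust) on log2(value + 1), which understates changes of low genes, over 14611 genes with a mean of at least 1, with two-sided Benjamini-Hochberg adjusted p-values. edgeR 4.0.16 and DESeq2 1.42.0 were alternatives. In simulated data the fit found 8%, 44%, 82% and 96% of changes of 1.2, 1.3, 1.5 and 2 fold. Each size had 50 genes with a mean of at least 20, and 7 of the 122 calls were false. Small differences would thus mostly be missed. Correlations used 100000 permutations. No 2 libraries agreed within sampling noise.

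The members and the lists were chosen with earlier results of these data known. Named genes are the 9 members, Mc4r, up to 3 genes with the smallest p of each list, and the 3 most similar genes of each member. Genes not reported here were left out of their lists and sums. The labels name no batch.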

Additional observations from a re-analysis of the deposited data

Results flagged for a closer look

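Among the 18 groups of values tested (9 genes in 2 genotypes), 2 held a library set apart from the others by Dixon's test, where chance gives about 1 in 20. Nfatc1 had 214 normalized counts in wild type replicate 2, far above the other wild type libraries, and that library also held the lymphocyte transcripts. Ppp3ca had 444 normalized counts in wild type replicate 1, below a cluster of 3 libraries between 473 and 478.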

How the results depend on the processing

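Across 23 settings the log2 fold changes of Ppp3ca, Rcan1, Rcan2, Nfatc1 and Nfatc3 kept their direction, and Rcan1 was the only member that passed in any. The count of members past the threshold was 0 with all libraries and 1 by DESeq2 and without both wild type replicate 2 and knockout replicate 5. Leaving out single libraries gave 0 to 1, the 1 without knockout replicate 5. Over all genes 67 passed, 0 without limma's trend and robust steps, 118 with library weights, 122 by DESeq2 and 168 without both named libraries. Leaving out single libraries gave 26 (without wild type replicate 4) to 117 (without wild type replicate 2), with 37, 29 and 44 without knockout replicates 1, 2 and 3 and 31 without wild type replicate 3. The cause was not tested.

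Members near 0 changed sign without passing. The knockout SD of Rcan1, recomputed after seeing the data, was 0.163 without knockout replicate 3 and 0.25 to 0.308 without each of the others. Ppp3r1 reached 0.0233 with library weights, 0.0558 with the replicate block and in the same 8 libraries without it, and 0.0328 without both named libraries, where Nfatc2 reached 0.0451. Leaving out single libraries gave 0.0459 to 0.127 for Ppp3ca, -0.0658 to 0.0324 for Ppp3r1, -0.169 to 0.0357 for Nfatc2, -0.166 to 0.0848 for Nfatc4 and -0.0685 to 0.0201 for Ppp3cb.

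The replicate block used replicates 1 to 4 of both genotypes. It called 52 genes against 70 in these 8 libraries without it, a comparison chosen after seeing the data, and 0 members in both, with Rcan1 at adjusted p = 0.052 and 0.0558 (limma). Deviations of same-numbered libraries correlated at -0.277 to -0.075 in the 4 pairs, and 0 of 4 knockouts correlated best with their own number. These 4 pairs gave no sign that the numbers pair the libraries, but they are too few to settle it. Nfatc4 had the fewest reads, 18 to 42 a library.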
